A study of Mus musculus with 4 samples.

Results

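The actin cytoskeleton of a mouse acute myeloid leukaemia was examined through 42 genes, chosen by name as rows of the deposited expression table: the thymosins and actins, and the proteins that supply, cut, cap, branch, bundle, contract and anchor actin filaments. All 42 were found among 24497 gene rows, and all 42 were among the 11452 genes that reached 1 TPM (a length-normalised share of all transcripts) in at least 2 libraries and were tested. The Tet2 KO group was 2 libraries of cultured leukaemia cells that carried NRAS and AE9a and had been made from bone marrow-derived haematopoietic stem cells of Tet2-/- mice, which lack exon 3 of the gene. The WT group was 2 libraries of the same kind of cells, with the same NRAS and AE9a, made from WT mice. AE9a is a truncated, strongly leukaemogenic variant of the fusion protein AML1-ETO, and Tet2 encodes an enzyme that oxidises 5-methylcytosine in DNA. Both groups grew in RPMI medium with the cytokines SCF, IL-3 and IL-6 and under selection with puromycin and G418. The labels do not say how many animals, clones or cultures stand behind the libraries of a group, so the p-values rest on a spread between libraries that may be purely technical.

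Actin exists as free monomers and as filaments, and a motile blood cell continually exchanges one for the other. Thymosins hold monomers in reserve, profilin delivers them to growing filament ends, and cofilin with its partners cuts old filaments and returns the subunits. The ARP2/3 complex, switched on by WASP and WAVE proteins, builds branched networks at the leading edge and at phagocytic cups. Formins and Ena/VASP proteins favour straight filaments, crosslinkers bind filaments together, and myosin II pulls on them.

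The libraries of a group lay close together. Over the 42 actin genes, the replicates differed by a median of 0.0411 on the log2 scale in Tet2 KO and 0.0278 in WT. Spike-in RNAs (ERCC) took 5.33 to 5.48% of the Tet2 KO totals and 4.38 to 4.43% of the WT totals. TPM are shares of a fixed total and keep no sequencing depth, so the depth is unknown. Tet2 itself was at 16.98 and 16.95 TPM in Tet2 KO and at 16.62 and 16.98 TPM in WT (limma adjusted p = 0.868, and 0.00831 with median-ratio scaling, where its log2 fold change was -0.23), and a value for the whole gene does not check the loss of 1 exon. Blood and myeloid markers were present, with all 10 tested (4 higher and 6 lower in Tet2 KO), and summed to 9691 to 9776 TPM in Tet2 KO and 22150 to 22181 TPM in WT. All 6 T cell, 5 B cell and 6 fibroblast markers stayed below 1 TPM in all libraries. Lyz2 alone made up 7575 and 7652 TPM of this sum in Tet2 KO and 19231 and 19239 TPM in WT. The markers of mast cells and basophils (2 of 5 tested higher, 3 lower) summed to 4973 to 5165 TPM in Tet2 KO and 2049 to 2070 TPM in WT, of which Cpa3 made up 5030 and 4847 TPM in Tet2 KO and 1716 and 1750 TPM in WT. Those of megakaryocytes (4 of 4 tested higher) summed to 153.8 to 162.5 TPM in Tet2 KO and 42.46 to 44.95 TPM in WT. Endothelial markers (2 of 2 tested higher) summed to 87.6 to 97.6 TPM in Tet2 KO and 51.9 to 53.6 TPM in WT, with Cdh5 at 0 to 0.03 TPM over the 4 libraries. Erythroid markers summed to at most 1.66 TPM in Tet2 KO and 1.1 TPM in WT, and muscle markers to 5.66 to 6.12 TPM in Tet2 KO and 5.83 to 6.22 TPM in WT. The part of these differences in the results below was not tested, and in cultures measured in bulk fewer cells of a type and less RNA per cell cannot be told apart.

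Most actin genes were lower in Tet2 KO cells. At an adjusted p under 0.05 in limma, 28 of the 42 fell, against a background of 19.5% of all tested genes called lower, and 9 rose, against a background of 54.4% called higher. The median log2 fold change was -0.27 over the actin genes and 0.23 over all tested genes, and 35 of the 42 lay below the median of all genes. After median-ratio scaling, which puts the median of all genes near 0, 35 actin genes fell, against a background of 34.8%, and 3 rose, against a background of 32.7%. Among abundant genes the share called lower on this scale was larger, as given below. All 28 genes that fell on the deposited scale also fell after rescaling. The 3 that rose on both scales were Tns1, Wipf1 and Capza2, and 2 genes, Myh9 and Msn, turned from higher to lower. The groups did not overlap for 29 genes that were lower and 11 that were higher in Tet2 KO, and they overlapped for Capza1 and Coro1a. The same count over all tested genes was not made, so this separation is not shown to be particular to the actin genes. On the deposited scale 5 of the called genes fell by at least 1.5-fold in mean TPM and 2 rose by at least 1.5-fold. After median-ratio scaling 16 fell and 1 rose by at least that much on the log2(TPM + 1) scale. No share of all tested genes was computed at this fold cutoff, so these counts describe the actin genes without a background.

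**Figure D1:**
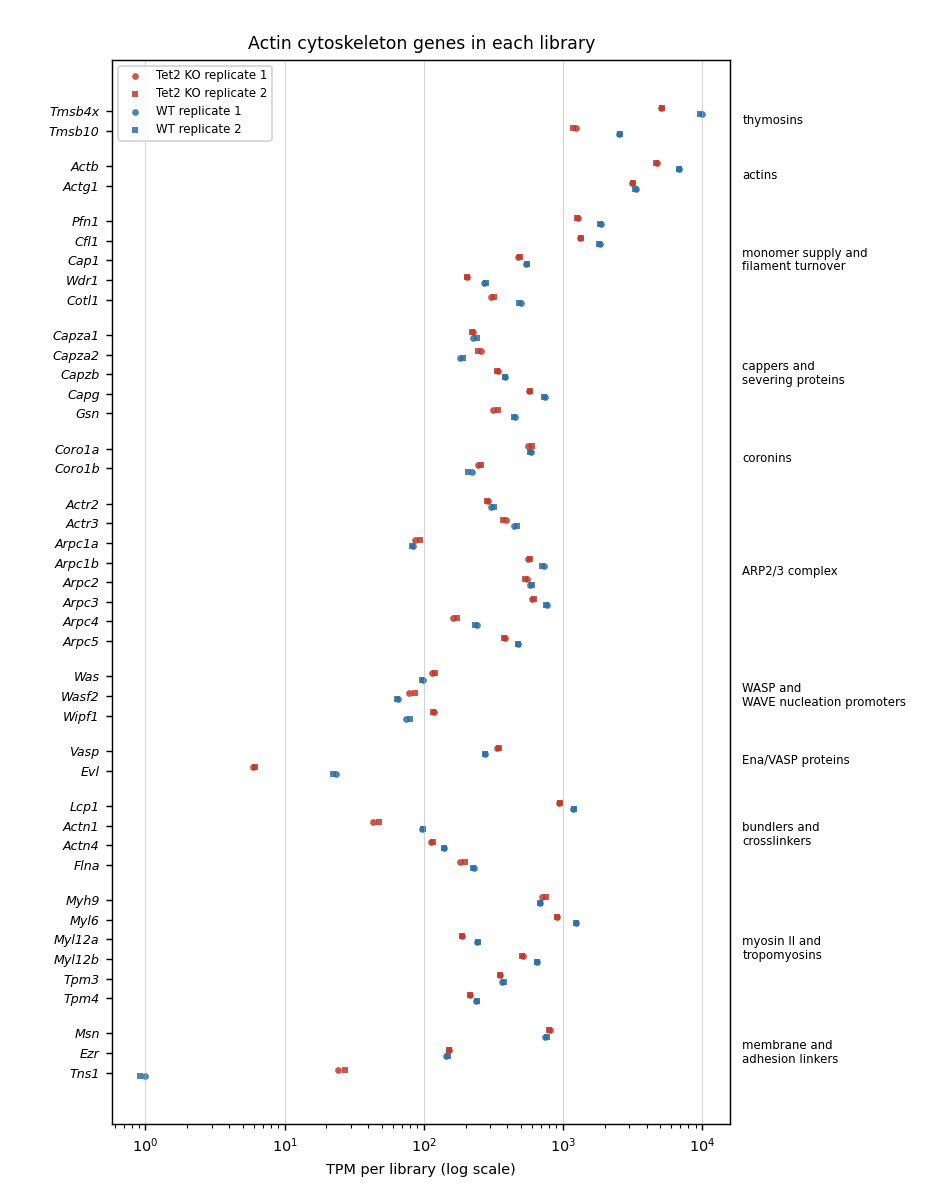
TPM of each of the 42 actin cytoskeleton genes in each library (log scale), grouped by role, with Tet2 KO libraries (red) above WT libraries (blue) in each row and circles and squares for replicates 1 and 2. The thymosins, actins, turnover genes and crosslinkers sit further left in Tet2 KO (Actg1 by a small gap), and Tns1 and the WASP and WAVE group further right.

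Levels ranged widely, and 17 of the 42 actin genes averaged at least 500 TPM over the 4 libraries. Together the 42 made up 2.92 and 2.94% of all TPM in Tet2 KO and 4.08 and 4.06% in WT, a ratio of mean sums of 0.72. The 2 groups were separated by far more than their replicates, with sums of 29264 ± 140.1 TPM in Tet2 KO and 40674 ± 129.9 TPM in WT (SD, n = 2 each). An exact permutation test of 2 against 2 libraries cannot go below p = 0.333 (two-sided), and that was the value here. The 2 thymosins and 2 actins held 48.7 and 48.4% of this sum in Tet2 KO and 55.9 and 55.6% in WT, and the other 38 genes together had a ratio of 0.836. Falls were more frequent among abundant genes in general: of the 245 tested genes averaging at least 500 TPM, 43.3% fell and 47.8% rose, whereas 14 of the 17 actin genes at that level fell and 2 rose. Among the 1181 genes between 100 and 500 TPM, 37.4% fell, and among the 19 actin genes there 12 fell. After median-ratio scaling 53.9% of the 245 most abundant genes fell, and all 17 actin genes among them. Between 100 and 500 TPM, 57.1% of all tested genes and 15 of the 19 actin genes fell on that scale.

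**Figure D2:**
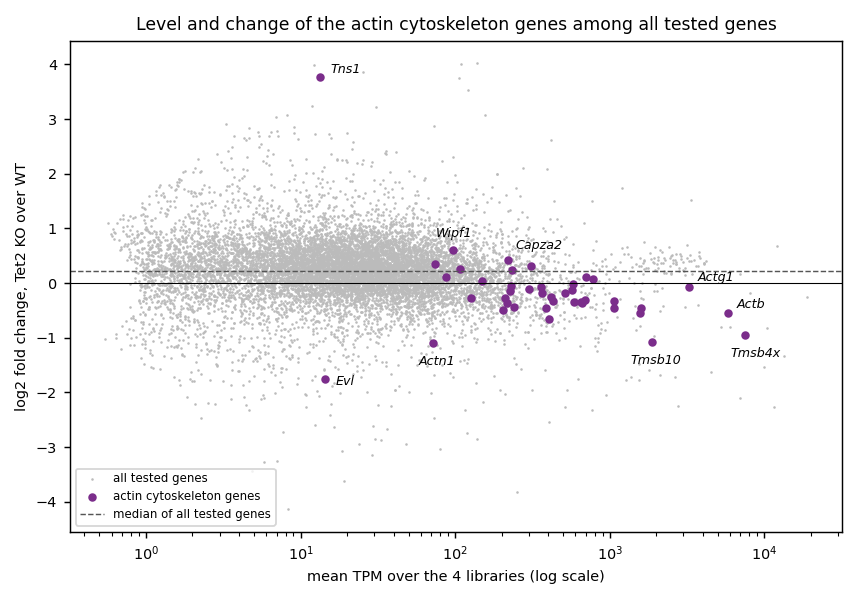
Log2 fold change of Tet2 KO over WT (deposited TPM) against the mean TPM over the 4 libraries (log scale) for all 11452 tested genes (grey) and the 42 actin cytoskeleton genes (purple), with the median of all tested genes as a dashed line. Above 500 TPM most actin genes lie below 0, and Tns1 stands near the top of the plot.

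Both thymosins fell to about the same degree, and these were the largest losses among the abundant actin genes. Tmsb4x, which encodes thymosin beta 4, the main reserve of actin monomers in blood cells (chromosome X, mm10), was at 5073.45 and 5136.96 TPM in Tet2 KO and at 10020.47 and 9769.83 TPM in WT. Tmsb10, which encodes the related thymosin beta 10 (chromosome 6), was at 1241.49 and 1181.25 TPM in Tet2 KO and at 2536.14 and 2591.54 TPM in WT. In both genes each Tet2 KO library lay far below each WT library. The WT mean was 1.94 times the Tet2 KO mean for Tmsb4x (log2 fold change -0.95, SE 0.0252, limma adjusted p = 1.3e-14) and 2.12 times for Tmsb10 (-1.08, SE 0.0326, limma adjusted p = 5.91e-14). Tmsb4x ranked 8th and 7th of all genes in the Tet2 KO libraries and 7th in both WT libraries, and after quantile normalization, which ties values to ranks, it was not called (log2 fold change -0.03, adjusted p = 0.285, range over alternatives 1.06e-50 to 0.285). In 50-base stretches, 43.5% of the longest Tmsb10 transcript also occurs in transcripts of other genes, against 0% of that of Tmsb4x. Reads of Tmsb10 could therefore have been divided between copies, and its level is uncertain. The longest transcripts are short, at 864 bases for Tmsb4x and 690 for Tmsb10, against a median of 3280 over the tested genes. Median-ratio scaling gave log2 fold changes of -1.21 for Tmsb4x and -1.33 for Tmsb10. Adding a correction for transcript length made them -0.91 and -1.01.

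The promoter windows of the thymosins are shown because these genes moved together. Each runs from 250 bases before to 50 after a transcription start in RefSeq (GRCm38.p6), 5′ to 3′ on the gene's strand, and capitals mark GGGCGG or its reverse complement, the core of a Sp1-type GC box. The windows are chrX:167209169-167209468 (minus strand) for Tmsb4x and chr6:72958699-72958998 (minus strand), the most upstream of 3 starts, for Tmsb10.
Tmsb4x: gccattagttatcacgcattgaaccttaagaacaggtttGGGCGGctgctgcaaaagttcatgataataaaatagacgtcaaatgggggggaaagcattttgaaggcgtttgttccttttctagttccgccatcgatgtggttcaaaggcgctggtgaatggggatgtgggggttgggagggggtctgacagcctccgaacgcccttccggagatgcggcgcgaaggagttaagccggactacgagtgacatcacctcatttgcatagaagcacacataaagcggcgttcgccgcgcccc
Tmsb10: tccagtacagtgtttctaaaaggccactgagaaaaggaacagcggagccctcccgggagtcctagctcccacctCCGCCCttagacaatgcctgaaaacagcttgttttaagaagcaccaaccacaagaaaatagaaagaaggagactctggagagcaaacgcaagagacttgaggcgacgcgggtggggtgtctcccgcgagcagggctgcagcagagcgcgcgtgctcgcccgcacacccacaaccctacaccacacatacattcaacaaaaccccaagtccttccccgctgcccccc
Each window holds 1 such match. On either strand, GGGCGG was found in 33 of the 39 actin genes that had a window (84.6%). It was found in 68.6% of the 8905 tested genes with a window. Of the 33, 23 were called lower and 6 higher, beside 28 and 9 of all 42 actin genes. Actb, Coro1b and Cotl1 were not matched.

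The 2 cytoplasmic actins moved by different amounts. Actb, which encodes beta-actin, was at 4751.99 and 4670.37 TPM in Tet2 KO and at 6868.34 and 6897.29 TPM in WT. Actg1, which encodes gamma-actin, was at 3135.78 and 3219.78 TPM in Tet2 KO and at 3347.54 and 3296.20 TPM in WT. The Actb groups were far apart, and those of Actg1 were separated by a small gap. Actb fell by 0.55 on the log2 scale (SE 0.0253, limma adjusted p = 1.27e-11), though not after quantile normalization (0.01, adjusted p = 0.786, range over alternatives 4.28e-38 to 0.786). The change of Actg1 was -0.06 (SE 0.028, limma adjusted p = 0.0495), close to the threshold. It was not called without Tet2 KO replicate 1 (adjusted p = 0.169), without WT replicate 1 (0.272) or without WT replicate 2 (0.115), with adjusted p ranging over alternatives from 1.38e-14 to 0.331. Relative to the median of all genes Actg1 was lower by more, with a log2 fold change of -0.32. Of the longest Actg1 transcript, 56.7% of 50-base stretches recur in other genes, pseudogenes included, and of the Actb transcript 14.2%, so the split between them carries that uncertainty. The smooth muscle actin gene Actg2 is listed at 0 in all 4 libraries.

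A CArG box, the site bound by serum response factor (SRF), a regulator of actin genes, was searched for by its consensus on both strands of the same windows. It was found in Actg1, Arpc4 and Myl6, 3 of the 39 actin genes with a window (7.69%), and in 1.44% of the 8905 tested genes with one. All 3 genes were called lower, Actg1 only narrowly, beside 28 of all 42 actin genes. The share called lower among all tested genes with this match was not computed. The windows are shown because they hold this match, in capitals: chr11:120348446-120348745 (minus strand) for Actg1, chr6:113377863-113378162 (plus strand) for Arpc4 and chr10:128492960-128493259 (minus strand) for Myl6.
Actg1: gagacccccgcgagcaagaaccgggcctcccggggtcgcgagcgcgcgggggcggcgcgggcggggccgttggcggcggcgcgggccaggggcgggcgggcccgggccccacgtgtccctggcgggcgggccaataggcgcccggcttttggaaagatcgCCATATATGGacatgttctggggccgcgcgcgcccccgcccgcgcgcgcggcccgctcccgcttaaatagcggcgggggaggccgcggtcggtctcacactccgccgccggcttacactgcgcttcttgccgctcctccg
Arpc4: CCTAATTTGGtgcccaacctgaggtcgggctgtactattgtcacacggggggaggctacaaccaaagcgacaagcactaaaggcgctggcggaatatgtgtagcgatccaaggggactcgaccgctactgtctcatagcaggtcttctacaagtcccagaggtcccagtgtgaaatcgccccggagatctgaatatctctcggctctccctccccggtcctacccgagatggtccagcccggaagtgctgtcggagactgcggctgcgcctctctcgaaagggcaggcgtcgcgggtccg
Myl6: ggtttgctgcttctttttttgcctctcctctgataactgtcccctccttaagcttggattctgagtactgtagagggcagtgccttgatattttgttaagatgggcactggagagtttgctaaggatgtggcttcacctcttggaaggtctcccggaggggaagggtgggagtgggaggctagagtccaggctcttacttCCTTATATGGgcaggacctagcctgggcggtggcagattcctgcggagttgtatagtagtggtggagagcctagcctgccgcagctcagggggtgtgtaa
In the windows shown, the match begins 90 bases before the start in Actg1, 250 bases before it in Arpc4 and 50 bases before it in Myl6. Myl6 has another window further upstream, chr10:128493837-128494136 (minus strand), which holds no match. A match is a string of letters and not evidence of binding in these cells.

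All 5 genes of monomer supply and filament turnover fell. Cfl1, which encodes the filament-severing protein cofilin 1, was at 1321.90 and 1354.00 TPM in Tet2 KO and at 1844.88 and 1831.67 TPM in WT. Cotl1, which encodes the coactosin-like actin-binding protein, was at 307.12 and 318.53 TPM in Tet2 KO and at 503.95 and 486.06 TPM in WT. The groups were well apart for both. Cfl1 fell by 0.46 on the log2 scale (SE 0.0306, limma adjusted p = 1.225e-09) and Cotl1 by 0.66 (SE 0.0388, limma adjusted p = 2.51e-10), the largest fall of this group. Pfn1, the profilin gene, averaged 1271 ± 20.4 TPM in Tet2 KO and 1868 ± 15.9 TPM in WT. Wdr1, which encodes a cofilin cofactor, averaged 205.7 ± 0.0707 TPM in Tet2 KO and 277.7 ± 7.45 TPM in WT. Cap1, whose product recycles actin monomers, fell the least, to 482.2 ± 12.6 TPM in Tet2 KO against 548.7 ± 6.17 TPM in WT, and missed the threshold after quantile normalization (adjusted p = 0.0815, range over alternatives 2.46e-15 to 0.0815). The 5 genes had a median log2 fold change of -0.46.

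Among the capping and severing proteins, 3 fell, 1 rose and 1 was not called. Capg, a macrophage capping protein gene, was at 570.57 and 583.38 TPM in Tet2 KO and at 749.71 and 738.68 TPM in WT, a fall of 22.5%. Gsn, which encodes gelsolin, a severing and capping protein, was at 313.08 and 342.61 TPM in Tet2 KO and at 452.54 and 442.57 TPM in WT, and fell by 0.45 on the log2 scale (SE 0.0439, limma adjusted p = 2.09e-07). The 2 genes of the alpha subunit of the heterodimeric capping protein diverged. Capza2 rose to 251.1 ± 8.59 TPM in Tet2 KO against 187.8 ± 7.66 TPM in WT, and rose also after median-ratio scaling. Capza1 averaged 225.5 ± 2.53 TPM in Tet2 KO and 233.6 ± 9.29 TPM in WT, with overlapping groups (limma adjusted p = 0.296), and was lower after median-ratio scaling (-0.30, adjusted p = 2.75e-04, range over alternatives 1.13e-08 to 0.902). Of the longest Capza1 transcript, 73.8% of 50-base stretches also occur in other genes, so its level is uncertain. Capzb, the beta subunit gene, fell to 341.0 ± 3.66 TPM in Tet2 KO against 386.0 ± 1.1 TPM in WT.

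Of the ARP2/3 complex, which nucleates branched filaments, 7 of 8 subunit genes fell, and all 8 fell after median-ratio scaling. Arpc3, the most abundant, was at 604.62 and 626.10 TPM in Tet2 KO and at 768.08 and 758.51 TPM in WT. Arpc4, with the largest change, was at 163.80 and 174.19 TPM in Tet2 KO and at 242.50 and 235.79 TPM in WT. Neither gene's groups overlapped, and the log2 fold changes were -0.31 (SE 0.0351, limma adjusted p = 6.83e-07) and -0.50 (SE 0.0444, limma adjusted p = 3.97e-08). Arpc1b fell by 21.0%, Arpc5 fell by 19.9% and Actr3 fell by 16.5%. Arpc2 fell by 8.65% and Actr2 fell by 7.83%. Those smaller calls depended on single libraries: Arpc2 was not called without WT replicate 2 (adjusted p = 0.0923), and Actr2 was not called without that library (0.283) or without Tet2 KO replicate 2 (0.0556). Over all alternatives the adjusted p reached 0.937 for Arpc2 and 0.283 for Actr2. Arpc1a, the alternative to Arpc1b in the complex, was at 87.06 and 93.37 TPM in Tet2 KO and at 84.30 and 82.97 TPM in WT and did not pass on the deposited scale (0.11, limma adjusted p = 0.0709). It was called higher without Tet2 KO replicate 1 (adjusted p = 0.0134) and lower after median-ratio scaling (-0.14, adjusted p = 0.0201, range over alternatives 0.00623 to 0.836). Of the longest Actr3 transcript, 49.8% of 50-base stretches recur in other genes.

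Was and Wasf2, whose products switch ARP2/3 on, and the WASP partner gene Wipf1 went the other way on the deposited scale. All 3 rose there, but only Wipf1 rose after median-ratio scaling. Was encodes WASP, the blood-specific activator of ARP2/3, and was at 114.15 and 121.11 TPM in Tet2 KO and at 98.25 and 97.36 TPM in WT. Wipf1, which encodes the WASP-stabilising partner WIP, was at 118.79 and 117.24 TPM in Tet2 KO and at 74.48 and 80.13 TPM in WT. Both genes were higher in each Tet2 KO library than in either WT library. Wipf1 rose by 0.60 on the log2 scale (SE 0.0508, limma adjusted p = 1.98e-08) and by 0.35 relative to the median of all genes. Wasf2, which encodes the WAVE2 protein, averaged 82.97 ± 5.59 TPM in Tet2 KO and 64.69 ± 0.516 TPM in WT. After median-ratio scaling Was had a log2 fold change of 0.01 (adjusted p = 0.802, range over alternatives 3.72e-05 to 0.802) and Wasf2 of 0.10 (adjusted p = 0.0933, range over alternatives 3.72e-06 to 0.447), so their rises on the deposited scale were about the size of the shift of all genes.

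The Ena/VASP family split. Vasp, whose product promotes filament elongation, was at 337.46 and 348.72 TPM in Tet2 KO and at 277.03 and 275.18 TPM in WT, and Evl, its relative, was at 5.90 and 6.11 TPM in Tet2 KO and at 23.33 and 22.15 TPM in WT. Evl had the largest fall of the 42 genes on the log2 scale (-1.76, SE 0.0779, limma adjusted p = 7.31e-12), with a WT mean 3.79 times the Tet2 KO mean. Vasp rose by 0.31 (SE 0.0388, limma adjusted p = 2.05e-06), but its log2 fold change was 0.06 after median-ratio scaling (adjusted p = 0.168, range over alternatives 1.4e-07 to 0.78). The third member of the family, Enah, is not one of the 42 genes and rose to 46.0 ± 1.17 TPM in Tet2 KO against 13.6 ± 0.566 TPM in WT (log2 fold change 1.68, limma adjusted p = 9.6e-13). The 2 low-abundance relatives of Vasp thus stood in opposite order in the 2 groups, Enah above Evl in Tet2 KO and Evl above Enah in WT. TPM are scaled to transcript length, so these levels can be set beside each other.

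All 4 bundlers and crosslinkers fell. Lcp1, which encodes the leukocyte bundling protein L-plastin, was at 945.80 and 951.16 TPM in Tet2 KO and at 1179.51 and 1197.91 TPM in WT. Actn1, the alpha-actinin 1 gene, was at 43.19 and 47.64 TPM in Tet2 KO and at 97.69 and 99.28 TPM in WT. The groups were apart for both genes. Actn1 fell by 1.10 on the log2 scale (SE 0.0568, limma adjusted p = 4.9e-11), a WT mean 2.17 times the Tet2 KO mean, whereas Lcp1 fell by 0.33 (SE 0.032, limma adjusted p = 1.32e-07). Actn4, the alpha-actinin 4 gene, fell by 17.7%, and Flna, which encodes the crosslinker filamin A, by 17.2%.

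Of the myosin II and tropomyosin genes 4 fell, 1 rose and 1 was not called, and all 6 fell after median-ratio scaling. Myl6, the essential light chain gene, was at 907.74 and 906.59 TPM in Tet2 KO and at 1237.13 and 1244.96 TPM in WT, the highest level and the largest change of this group (-0.45, SE 0.0318, limma adjusted p = 2.29e-09). The regulatory light chain genes Myl12a and Myl12b, neighbours on chromosome 17, fell as well: Myl12a fell by 22.5% and Myl12b fell by 21.7%. They have 29.6% and 33.0% of their 50-base stretches in common with other genes, so their separate values are uncertain. Myh9, the heavy chain gene of non-muscle myosin IIA, did not follow its light chains. It was at 704.87 and 759.65 TPM in Tet2 KO and at 680.62 and 680.96 TPM in WT (0.10, SE 0.0388, limma adjusted p = 0.0239) and turned lower after median-ratio scaling (-0.15, adjusted p = 0.0105). The Myh9 call on the deposited scale was lost without Tet2 KO replicate 2 (adjusted p = 0.192), without WT replicate 1 (0.114) and without WT replicate 2 (0.11), with a range of adjusted p over alternatives of 3.91e-05 to 0.192. Tpm4 fell by 9.75%, and not without WT replicate 2 (adjusted p = 0.0814, the highest over alternatives, the lowest being 3.38e-12). Tpm3 averaged 351.7 ± 0.926 TPM in Tet2 KO and 372.0 ± 5.43 TPM in WT and was not called (limma adjusted p = 0.061), though lower after median-ratio scaling (-0.33).

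The coronins, which bind filaments and ARP2/3, were little changed. Coro1a, the leukocyte coronin gene, was at 559.20 and 596.28 TPM in Tet2 KO and at 587.45 and 577.91 TPM in WT, with overlapping groups (limma adjusted p = 0.772). Coro1b was at 246.37 and 259.98 TPM in Tet2 KO and at 221.56 and 209.32 TPM in WT and rose by 0.23 on the log2 scale (SE 0.0445, limma adjusted p = 1.94e-04). Median-ratio scaling moved them to -0.27 for Coro1a (adjusted p = 4.64e-04, range over alternatives 2.3e-08 to 0.987) and -0.02 for Coro1b (adjusted p = 0.72, range over alternatives 4.62e-05 to 0.72), so Coro1b kept to the median of all genes.

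The linkers to membranes and adhesions hold the largest change. Tns1, which encodes tensin 1, a scaffold that ties actin to integrin adhesions (chromosome 1), was at 24.23 and 27.30 TPM in Tet2 KO and at 1.00 and 0.92 TPM in WT. Both WT libraries were at or just under 1 TPM and both Tet2 KO libraries far above them, a 26.8-fold ratio of mean TPM (log2 fold change 3.77, SE 0.0968, limma adjusted p = 9.42e-15). By level it ranked 5479 and 5115 among all genes in the Tet2 KO libraries and 11079 and 11161 in the WT libraries. The tensin gene Tns2 averaged 1.07 ± 0.0283 TPM in Tet2 KO and 0.525 ± 0.0212 TPM in WT, near the floor. Tns2 was called higher on the deposited scale (limma adjusted p = 0.00677) and after median-ratio scaling (adjusted p = 0.0342, range over alternatives 7.11e-04 to 0.423). Tns3, another tensin gene, averaged 16.48 ± 0.792 TPM in Tet2 KO and 17.61 ± 0.905 TPM in WT and was not called (limma adjusted p = 0.268), though it was lower after median-ratio scaling (-0.33, adjusted p = 0.00173, range over alternatives 4.93e-05 to 0.741). Msn, which encodes moesin, the main membrane linker of the ERM family in leukocytes, was at 809.44 and 795.79 TPM in Tet2 KO and at 749.44 and 770.86 TPM in WT. Its rise was small (0.08, SE 0.0342, limma adjusted p = 0.0488). It was lost without Tet2 KO replicate 1 (adjusted p = 0.111), WT replicate 1 (0.341) or WT replicate 2 (0.102), and it turned to a fall after median-ratio scaling (-0.17, adjusted p = 0.00374, range over alternatives 1.08e-05 to 0.341). Ezr, the ezrin gene, averaged 151.4 ± 0.269 TPM in Tet2 KO and 147.9 ± 3.62 TPM in WT and was not called (limma adjusted p = 0.505), though it was lower after median-ratio scaling (-0.22).

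The Tns1 promoter window is shown because this gene had the largest change of the 42, with capitals for GGGCGG as above (chr1:74124499-74124798, minus strand, RefSeq on GRCm38.p6).
Tns1: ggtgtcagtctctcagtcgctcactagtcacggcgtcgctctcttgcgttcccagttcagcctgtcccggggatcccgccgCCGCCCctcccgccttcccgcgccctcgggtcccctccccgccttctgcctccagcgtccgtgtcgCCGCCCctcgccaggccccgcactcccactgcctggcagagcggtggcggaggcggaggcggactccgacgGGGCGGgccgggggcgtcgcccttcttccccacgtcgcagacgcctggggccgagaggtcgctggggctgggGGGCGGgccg
It holds 4 matches to GGGCGG and 37 CpG dinucleotides. The median over the 50 windows of the actin genes was 21 CpG, and over all 32851 windows, genes not tested included, it was 7. More CpG than in Tns1 were held by windows of Actg1 (50), Arpc5 (41), Arpc2 (40) and Wdr1 (38), all called lower. Capza2, called higher, and Ezr, not called, held 38 each. No DNA methylation was measured in these libraries.

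**Figure D3:**
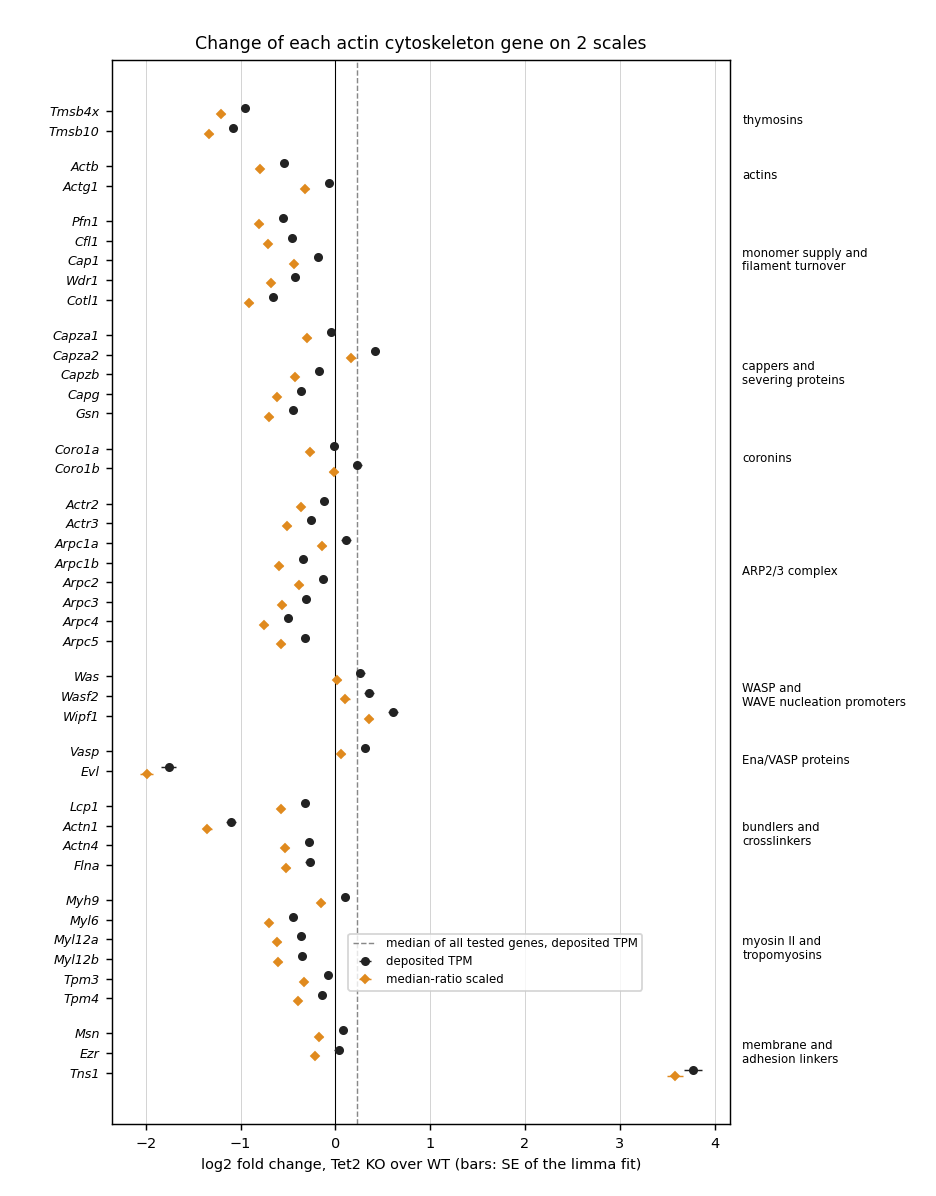
Log2 fold change of Tet2 KO over WT for each actin cytoskeleton gene, grouped by role, on deposited TPM (black circles) and after median-ratio scaling (orange diamonds), with bars for the SE of the limma fit and a dashed line at the median of all tested genes on deposited TPM. Rescaling moves each gene left, which takes Coro1b, Arpc1a, Myh9, Msn and Ezr from above to below 0 and leaves Tns1, Wipf1 and Capza2 as the called rises.

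Ratios of 2 related genes within a library do not depend on how libraries are scaled. Of 12 pairs, the groups did not overlap in 11, but with 2 libraries a group no exact test can go below p = 0.333. The same count over other pairs of genes was not made, so this separation is not shown to be particular to these pairs. Evl relative to Vasp had the widest gap, with a ratio of 0.0175 and 0.0175 in Tet2 KO and 0.0842 and 0.0805 in WT. Actn1 relative to Actn4 was 0.379 and 0.411 in Tet2 KO and 0.702 and 0.709 in WT, so the 2 alpha-actinin genes changed unequally. In 3 pairs the ratio was higher in Tet2 KO by similar factors: Actg1 to Actb by 1.4-fold, Capza2 to Capza1 by 1.39-fold and Arpc1a to Arpc1b by 1.36-fold. Capza2 was the higher of its pair in Tet2 KO, at 1.13 and 1.1 times Capza1, and the lower one in WT, at 0.804 and 0.805 times. Coro1b to Coro1a was 1.19-fold and Actr2 to Actr3 1.1-fold higher in Tet2 KO. Tmsb10 relative to Tmsb4x was 0.245 and 0.23 in Tet2 KO and 0.253 and 0.265 in WT, a small gap beside the fall of each gene. Myl12a relative to Myl12b was 0.363 and 0.37 in Tet2 KO and 0.365 and 0.375 in WT, the 1 pair whose groups overlapped. In the remaining pairs, Capg to Gsn, Tpm4 to Tpm3 and Ezr to Msn, the ratio differed by a factor of 1.06 or less.

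**Figure D4:**
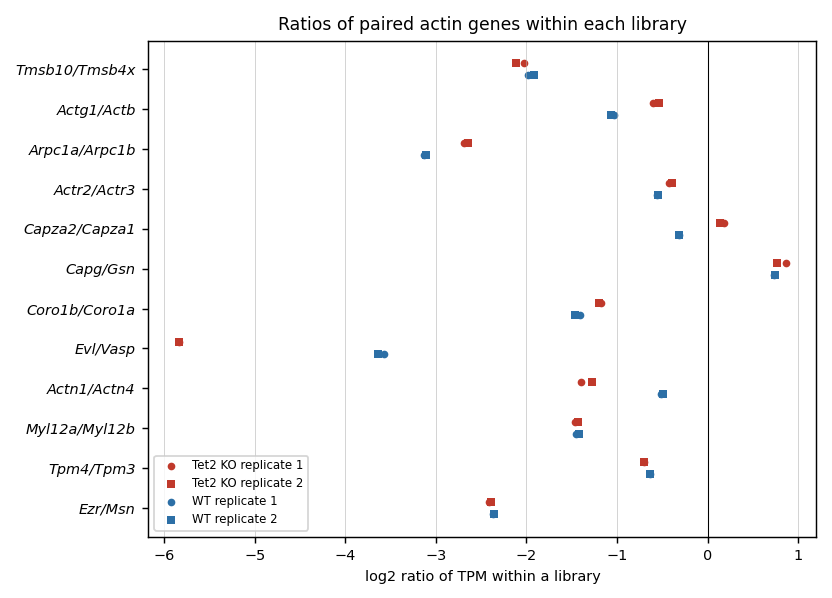
Log2 ratio of TPM of 2 related actin genes within each library, with Tet2 KO libraries (red) above WT libraries (blue) in each row. Evl over Vasp and Actn1 over Actn4 are lower in Tet2 KO, Actg1 over Actb, Arpc1a over Arpc1b and Capza2 over Capza1 are higher, and the groups overlap for Myl12a over Myl12b.

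Among partners of the WAVE and WASP proteins, 14 of 23 tested rose and 8 fell on the deposited scale, beside a background of 54.4% higher and 19.5% lower. After median-ratio scaling 7 rose and 9 fell, beside a background of 32.7% higher and 34.8% lower. Cyfip2, a WAVE complex subunit gene, rose to 140.4 ± 8.2 TPM in Tet2 KO against 69.3 ± 3.1 TPM in WT. Arpc5l, the paralog of Arpc5 in the ARP2/3 complex, rose to 118.4 ± 0.99 TPM in Tet2 KO against 61.0 ± 0.0424 TPM in WT, while Arpc5 itself fell. Hcls1, the blood cell cortactin relative HS1, fell to 186.3 ± 0.622 TPM in Tet2 KO against 271.6 ± 6.1 TPM in WT, and Cttn, the cortactin gene, to 4.9 ± 0.46 TPM in Tet2 KO against 11.9 ± 0.184 TPM in WT. Among 28 tested paralogs and relatives of the actin genes 17 rose and 7 fell, or 11 and 11 after median-ratio scaling, beside the same background shares. Beside Enah, Dock11, a guanine nucleotide exchange factor gene, rose to 70.6 ± 0.198 TPM in Tet2 KO against 36.4 ± 2.04 TPM in WT. Dstn, which encodes destrin, a close relative of cofilin, fell to 188.2 ± 15.6 TPM in Tet2 KO against 276.3 ± 7.93 TPM in WT, and Lasp1, an actin-binding adaptor gene, to 208.2 ± 9.74 TPM in Tet2 KO against 300.4 ± 6.89 TPM in WT.

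In the SRF-MRTF list, the transcription pathway that senses free actin and drives actin genes, 11 of 17 genes in the table were tested. Of these 4 rose and 4 fell, beside a background of 54.4% higher and 19.5% lower, with a median log2 fold change of -0.07. After median-ratio scaling 1 rose and 6 fell, beside a background of 32.7% higher and 34.8% lower. Srf was at 20.47 and 22.08 TPM in Tet2 KO and at 23.88 and 24.49 TPM in WT and fell by 0.18 (limma adjusted p = 0.0226, range over alternatives 1.42e-07 to 0.146). The Srf call was lost without Tet2 KO replicate 1 (adjusted p = 0.107), WT replicate 1 (0.0784) or WT replicate 2 (0.146). Mkl1 and Mkl2, which encode the actin-sensing cofactors MRTF-A and MRTF-B, rose by 0.38 and 0.40 on the deposited scale and were not called after median-ratio scaling, with adjusted p of 0.0903 for Mkl1 (range over alternatives 2.08e-05 to 0.266) and 0.0504 for Mkl2 (range over alternatives 2.785e-05 to 0.182). Zyx, the zyxin gene, rose to 130.1 ± 4.27 TPM in Tet2 KO against 94.9 ± 1.44 TPM in WT, and Filip1l to 12.6 ± 0.976 TPM in Tet2 KO against 8.9 ± 1.14 TPM in WT, but Filip1l was not called after median-ratio scaling (adjusted p = 0.0608, range over alternatives 8.36e-05 to 0.135). Anxa1, which encodes annexin A1, fell to 284.1 ± 2.68 TPM in Tet2 KO against 961.3 ± 0.82 TPM in WT, and Tpm1 to 76.6 ± 0.453 TPM in Tet2 KO against 91.4 ± 4.5 TPM in WT. The smooth muscle gene Acta2 was at 2.67 and 3.15 TPM in Tet2 KO and at 3.61 and 3.20 TPM in WT and was not called (limma adjusted p = 0.181), though it was lower after median-ratio scaling (-0.36, adjusted p = 0.016, range over alternatives 0.00304 to 0.564).

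**Figure D5:**
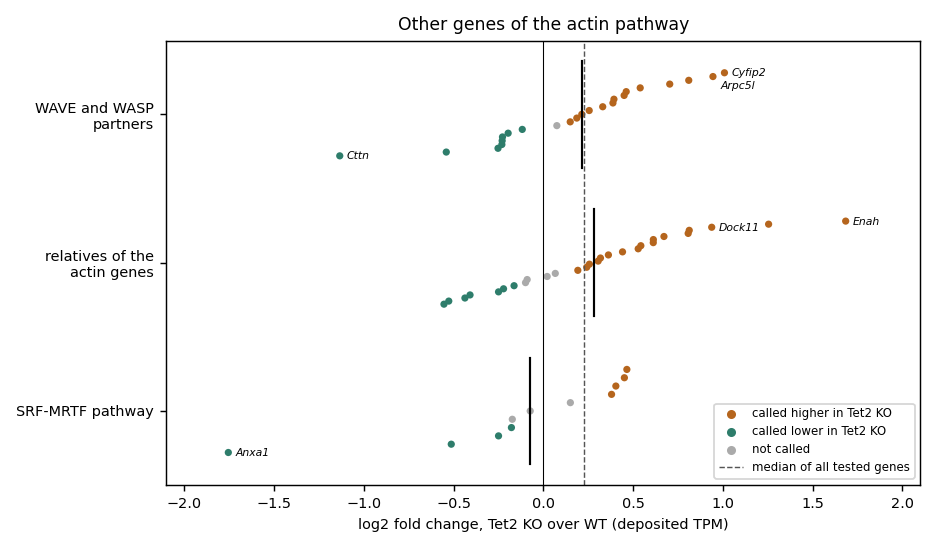
Log2 fold change of Tet2 KO over WT (deposited TPM) for each tested gene of the 3 wider lists, one point a gene, with a black bar at the list's median and a dashed line at the median of all tested genes. The medians of the first 2 lists lie at 0.21 and 0.28, and that of the SRF-MRTF list lies at -0.07.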

How the data were processed

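Gene-level TPM of 4 libraries were used as the authors deposited them; per the submitters' processing notes STAR, RSEM and mm10 were used, with no versions given, and per the labels' protocols a KAPA stranded mRNA kit was used. The 92 ERCC spike-in rows stayed in the totals and out of the tests. Values were analysed as log2(TPM + 1), so fold changes of low genes are understated. Genes reaching 1 TPM in 2 or more libraries were fitted together with limma 3.58.1 (R 4.3.3, empirical Bayes with trend and robust estimation), Tet2 KO against WT, two-sided, with Benjamini-Hochberg adjustment over 11452 genes and a threshold of 0.05. Median-ratio scaling used genes above 0 in all libraries. The length correction started from these scaled values. It removed from each library a smooth trend of its deviation from the gene means on transcript length. The script was tested on simulated data. The members, lists and tests were chosen with earlier results of these data known. Full values are given for the thymosins and actins and, in every other role, for the most abundant member and the one with the largest change. From each wider list up to 2 called genes a direction are named. They had the largest change and at least 5 TPM in the higher group. A few others were chosen after their values were seen (Tns2, Tns3, Coro1c, Coro2a, Coro7, Srf, Mkl1, Mkl2, Acta2 and Actg2). Promoter windows came from RefSeq (GRCm38.p6), matched by symbol for 39 of 42 genes, and transcript lengths and shared stretches from GENCODE. The labels do not say that same-numbered libraries share a batch, so the main fit has no replicate block. Some gene groups of the wider pathway are not reported here.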

Additional observations from a re-analysis of the deposited data

How the results depend on the processing

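The split of calls depended on scaling. Over all tested genes, calls higher and lower in Tet2 KO numbered 3743 and 3982 after median-ratio scaling, 3915 and 3741 after quantile normalization, 3394 and 4323 after scaling to spike-ins and 3632 and 3852 with the length correction, against 6225 and 2238 on the deposited scale. Actin genes called higher numbered 3, 3 and 5 after median-ratio, spike-in and length-corrected scaling and 10 after quantile normalization, against 9 on the deposited scale. Those called lower stayed between 24 and 35 over the alternatives run. The summed level of the actin genes is given here as a percentage of the fixed total of the deposited TPM. It differed by -1.141% as deposited, -1.755% after median-ratio scaling, -1.876% after spike-in scaling and -1.161% without spike-in rows. Median-ratio and spike-in scaling change the total of a library, so their values are not shares of a library, and the share itself is unchanged by them. Log2 fold changes that changed sign after median-ratio scaling were Coro1b (-0.0198), Arpc1a (-0.1427), Myh9 (-0.1484), Msn (-0.174) and Ezr (-0.2178). After spike-in scaling they were Coro1b (-0.063), Arpc1a (-0.1856), Was (-0.0302), Myh9 (-0.1917), Msn (-0.2174) and Ezr (-0.2609). With the length correction they were Wasf2 (-0.046), Myh9 (-0.3814), Msn (-0.1815) and Ezr (-0.1837), and after quantile normalization Actb (0.0074), Coro1a (0.1225), Arpc1a (-0.0615), Arpc2 (0.0033), Tpm3 (0.0241) and Ezr (-0.0383). Coro1a was at 0.0022 without spike-in rows and ranged from -0.0592 to 0.0333 when 1 library was left out. The cause was not tested. The Evl to Vasp log2 ratio differed by -2.0727 with a pseudocount of 1.

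With the replicate number as a block, 8 actin genes were called higher and 27 lower, and over all genes 6179 and 2211. The deviations of same-numbered libraries from their group means correlated at -0.0561 over 11452 genes. The labels do not say whether same-numbered libraries share a batch, and this value cannot exclude it. TPM carry no depth, which leaves counting error unknown.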
